A study of Mus musculus with 16 samples.

Results

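The brains of neonatal Cx43 null mice were compared with those of neonatal Cx43 heterozygous mice, which carry the loss of Gja1 on 1 of their alleles only. The comparison takes 8 of the 16 arrays of the series, 4 samples of each genotype, chosen by their titles. Per the labels both groups are on a C57BL background, and brain RNA was hybridised as Cy3-labelled cDNA beside a Cy5-labelled reference made once from adult tissues that include aorta, brain, heart, kidney, liver, lung, gonads, spleen and stomach. Wild-type (C57BL/6j) and Cx32 null brain, 4 arrays each, entered the fit for the common error. The labels give no allele, no age in days and no statement of whether a sample is 1 brain or a pool, so each p-value measures the spread between these samples, which may be technical.

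Connexin 43, encoded by Gja1, forms gap junction channels and hemichannels and is the main connexin of astrocytes, radial glia and the meninges. Channels made of it let ions and small metabolites pass between neighbouring cells, and in the developing cortex it also takes part in the adhesion of migrating neurons to radial glia. The null mutation is lethal soon after birth, with an obstructed outflow tract of the heart, whereas heterozygous mice are viable. The comparison sets the loss of both alleles against the loss of a single allele.

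Each value is the log ratio of brain to reference of 1 spot, read as log2, on an array centred on its median. The labels state neither the base of the logarithm nor the numerator. Natural logarithms would make every fold larger, and the direction holds if brain is the numerator, which is likely because the median of a neuron list lay above those of 2 lists of adult tissue genes on 16 of 16 arrays. On the 8 arrays compared, the neuron list had medians of 1.82 to 2.44, and the liver plasma protein list medians of -4.59 to -4.02. A value was present for 23218 to 24819 of 28704 spots on the Cx43 null arrays and for 21293 to 23075 on the heterozygous arrays. In bulk RNA, fewer cells of a type and less RNA per cell cannot be told apart.

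Some arrays stood apart before any gene was tested. Cx43 null replicate 1 correlated with the heterozygous arrays at r of 0.787 to 0.799, the lowest of the 4 null arrays, and with wild-type arrays at 0.707 to 0.896. With wild-type replicates 2 to 4 it was at 0.882 to 0.896, and with the other null arrays at 0.789 to 0.899. Cx43 null replicate 3 correlated with wild-type arrays at 0.484 to 0.754, and the heterozygous arrays did so at 0.516 to 0.779. The values of 0.707, 0.484 and 0.516 are those with wild-type replicate 1. That array correlated with the other wild-type arrays at 0.683 to 0.763 only. The heterozygous arrays were alike, with r of 0.902 to 0.931 among themselves, against 0.789 to 0.919 among the null arrays. The SD between the 4 arrays of a group had a median over transcripts of 0.27 ± 0.053 (jackknife SE) in Cx43 null and 0.20 ± 0.016 in Cx43 heterozygous brain. In 1 of the 48 printed blocks of spots, Cx43 null replicate 2 and Cx43 heterozygous replicate 4 did not follow the other arrays. No passing transcript lies there.

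**Figure D1:**
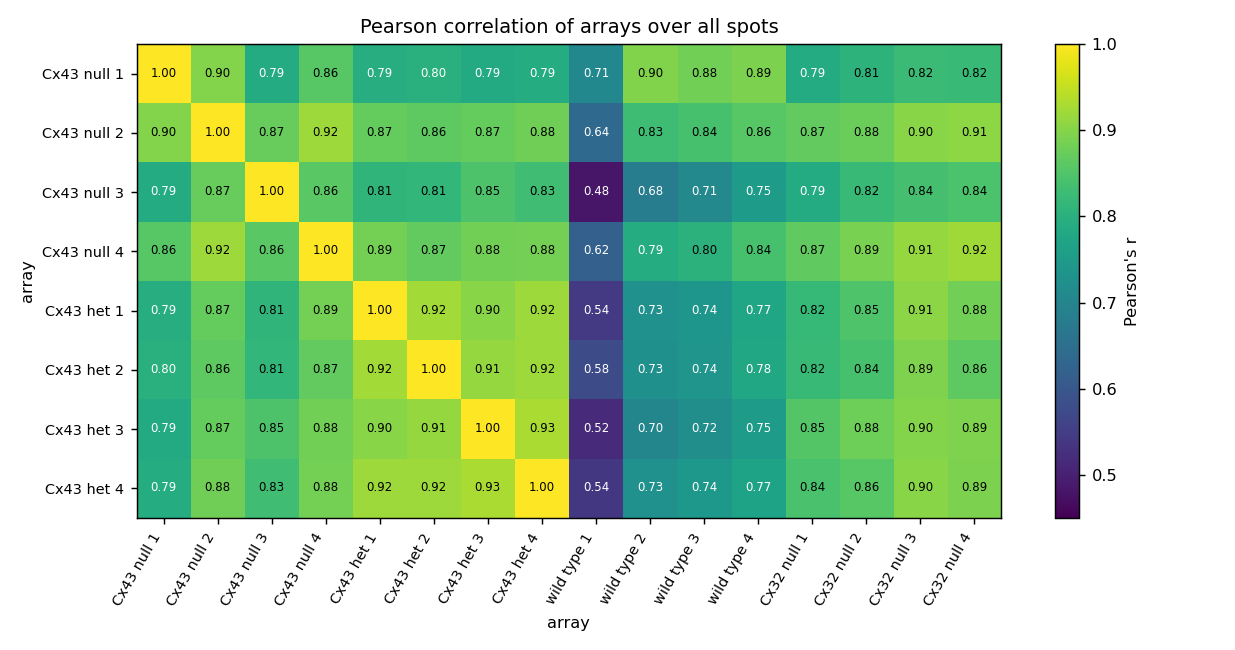
Pearson's r between array-centred log2 ratios of the 8 arrays compared (rows) and all 16 arrays (columns), over the spots with a value on both; colour and printed number give r. The heterozygous arrays lie between 0.902 and 0.931 of each other, and Cx43 null replicate 1 between 0.787 and 0.799 of them.

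Of 14292 transcripts tested, 208 (1.46%) differed between Cx43 null and Cx43 heterozygous brain at a Benjamini-Hochberg adjusted p under 0.05 (limma). Of these, 110 (0.77%) were higher and 98 (0.686%) lower in Cx43 null brain. Named genes made up 65 of the higher and 43 of the lower transcripts, and the other 100 are spots without a single gene symbol. The differences ran from 1.53-fold to 4.98-fold, with a median of 2.21-fold. The 2 groups did not overlap for 205 of the 208, against 1775 (12.4%) of all transcripts, of which 7.11% were wholly higher and 5.31% wholly lower in Cx43 null brain. The median difference of all transcripts was 0.04 on the log2 scale. Rises made up 52.9% of the passing transcripts, and this share depended on the scaling. It was 22.2% with values as deposited, where the median of all differences was -0.13. Cyclic loess gave 41.4%, quantile scaling 46.1% and array quality weights 64.0%.

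**Figure D2:**
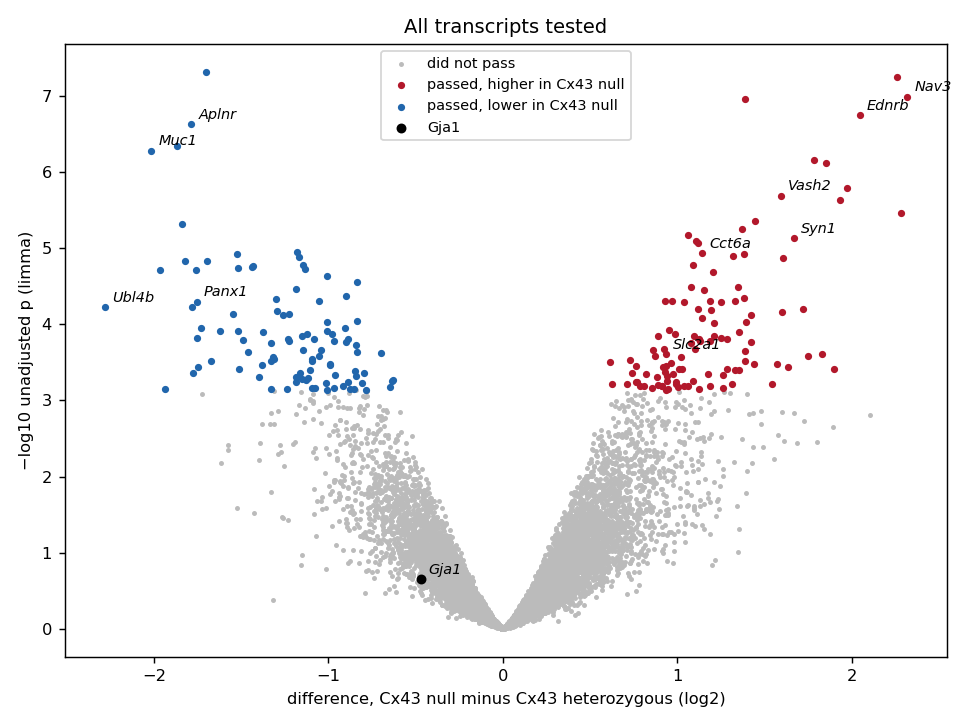
Difference between Cx43 null and Cx43 heterozygous brain (log2, x axis) against -log10 of limma's unadjusted p (y axis) for the 14292 transcripts tested; coloured points are the 208 that passed. Nav3 and Ednrb lie at the upper right, Aplnr and Muc1 at the upper left, and Gja1 (black) among the transcripts that did not pass.

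Gja1 itself did not separate the 2 genotypes. Its log2 ratio was -0.60, -1.71, -2.10 and -2.92 on the 4 Cx43 null arrays and -1.09, -1.27, -1.25 and -1.86 on the 4 heterozygous arrays. The null arrays thus lay on both sides of the heterozygous ones, with replicate 1 above all of them. The group means were -1.83 ± 0.96 (SD, n = 4) and -1.36 ± 0.34, against 1.56 ± 0.63 in wild-type and 0.11 in Cx32 null brain. The difference was -0.47 ± 0.37 (SE; 95% interval -1.25 to 0.31; limma adjusted p = 0.637; exact permutation p = 0.4286, 2-sided, where the smallest possible value is 0.0286). Without Cx43 null replicate 1 it was -0.88, and without replicate 4 it was -0.11. The gene was read by 1 spot, whose place relative to the deleted part of Gja1 is not known, so a transcript left over from the mutated allele cannot be told apart from the intact one, and the spot need not check the labels.

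Panx1 was lower in Cx43 null than in Cx43 heterozygous brain. It encodes a membrane channel of a family related to the connexins in topology, which releases ATP. Its log2 ratio was 1.96, 2.07, 1.69 and 2.44 on the Cx43 null arrays and 4.43, 2.75, 3.74 and 4.26 on the heterozygous arrays. Every null array lay below every heterozygous array, and the null mean of 2.04 was near the wild-type mean of 1.99. Panx1 was 3.38-fold lower in Cx43 null brain (-1.76 ± 0.33, adjusted p = 0.013). The call was lost without heterozygous replicate 1 (adjusted p = 0.0551) or 4 (0.0558). The third measured gene of the connexin and pannexin list, Gjb5, an epidermal connexin, differed by 0.11 ± 0.24 (adjusted p = 0.899). Gjb1, Gjb2 and Gjb6, the other glial and meningeal connexins, have no spot named for them here.

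Among the named genes that passed, Nav3 and Ednrb were raised most in Cx43 null brain. Between them lay 2 passing spots without a single symbol, at 2.28 and 2.26. Nav3, a microtubule-binding navigator protein of growing neurites, had log2 ratios of 1.66, 1.68, 1.27 and 1.91 in Cx43 null and of -0.85, -0.70, -0.47 and -0.72 in Cx43 heterozygous brain. It was 4.98-fold higher in Cx43 null brain (2.32 ± 0.27, adjusted p = 0.000393). Ednrb, the endothelin B receptor carried by astrocytes and by neural crest cells, was at 1.57, 1.77, 1.41 and 1.88 against -0.68, -0.79, -0.62 and 0.54. It was 4.13-fold higher (2.05 ± 0.24, adjusted p = 0.00052). For both genes the null arrays lay close together and the heterozygous arrays far below them, with heterozygous replicate 4 the highest of its group for Ednrb. The wild-type means, 1.73 for Nav3 and 1.88 for Ednrb, and the Cx32 null means, 1.80 and 1.71, were close to those of Cx43 null brain.

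Vash2, vasohibin 2, which takes part in vessel growth and removes the terminal tyrosine of tubulin, was at 1.84, 2.29, 0.93 and 1.70 in Cx43 null and -0.09, 0.33, 0.26 and -0.11 in heterozygous brain. The groups did not overlap, and Vash2 was 3.02-fold higher (1.59 ± 0.23, adjusted p = 0.00244). Syn1, synapsin I of synaptic vesicles, was at 1.41, 0.94, 0.88 and 0.87 against -0.35, -0.03, -1.27 and -0.93. It was 3.18-fold higher (1.67 ± 0.27, adjusted p = 0.00561), with null replicate 1 above the other null arrays; without that array the difference was 1.54. Arsa, the lysosomal arylsulfatase that breaks down the myelin lipid sulfatide, was at 0.71, 0.91, 0.68 and 0.26 against -0.53, -1.09, -0.71 and -0.89. It was 2.72-fold higher (1.44 ± 0.22, adjusted p = 0.00418). Nav3, Ednrb, Vash2, Syn1 and Arsa passed in all 8 fits that left out 1 of the 8 arrays compared.

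The other 7 of the 12 largest rises did not pass in all of these fits. Sfxn3, a sideroflexin of the inner mitochondrial membrane, was 3.56-fold higher (1.83 ± 0.40, adjusted p = 0.0305, n = 3 heterozygous arrays), and the call was lost without null replicate 1, 3 or 4 or heterozygous replicate 3 (adjusted p 0.0506 to 0.108). That last array had no value for Sfxn3, whose difference without it was still 1.83. Without null replicate 1, 3 or 4 the Sfxn3 difference was 1.70, 1.89 and 1.74. Lcn2, the iron-siderophore-binding lipocalin 2, was 3.30-fold higher (1.72 ± 0.33, adjusted p = 0.0151). Its log2 ratio of -0.44 on null replicate 1 lay above the -2.18 to -1.78 of the other null arrays. Only 1 of its 2 spots had a value there, and on that spot the other null arrays were at -1.76 to -1.03. The 2 spots differed by 1.32 and 1.57 between the groups, and the gene's difference was 1.33 without null replicate 1. Lcn2 was lost without null replicate 2 or heterozygous replicate 1, 2 or 3 (adjusted p 0.0506 to 0.0588). Cish, a suppressor of cytokine signalling, was at 0.92 on null replicate 1 and at -0.91 to -0.30 on the other null arrays, against -2.16 to -1.66 in heterozygous brain. It was 3.03-fold higher (1.60 ± 0.31, adjusted p = 0.0155), 1.21 on the log2 scale without null replicate 1, and lost without heterozygous replicate 2 (0.0537) or 3 (0.0599).

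1600014C10Rik was 3.37-fold higher (1.75 ± 0.39, adjusted p = 0.0318), with null replicate 3 at 1.82 and the other null arrays at -0.62 to -0.12. It passed without null replicate 1, 3 or 4 and was lost without any of the other 5 arrays (adjusted p 0.0594 to 0.0982). A second spot of 1600014C10Rik, left out by the filter on values in the other genotypes, went the other way: it was at 0.78, 0.74, 0.32 and -0.13 in Cx43 null and at 2.40, 1.93 and 1.34 on 3 heterozygous arrays, with no overlap. The 2 spots contradict each other, and with the 8 arrays alone, where both were averaged, the difference was 0.57 (adjusted p = 0.477). 1300017J02Rik (1.57 ± 0.36, adjusted p = 0.0363) passed in a single such fit, the one without null replicate 4, and had adjusted p of 0.055 to 0.134 in the other 7. Galm, the mutarotase of galactose metabolism, differed by 1.54 ± 0.36 (adjusted p = 0.0484, n = 3 null arrays) and was lost without any 1 heterozygous array (adjusted p 0.0592 to 0.145). A second spot for Galm was left out for lack of values in Cx32 null brain; its values were -1.94, -2.62, -3.72 and -2.71 in Cx43 null and -2.61, -2.70 and -2.61 on 3 heterozygous arrays, so that its groups overlapped. Itih1, a hyaluronan-binding plasma protein, was 2.69-fold higher (1.43 ± 0.28, adjusted p = 0.0164), and lost without null replicate 1 or heterozygous replicate 3 or 4 (adjusted p 0.0546 to 0.0656). Its left-out second spot was at -3.36, -4.06, -3.23 and -3.64 against -5.48, -3.59, -3.81 and -3.08, so that the groups overlapped, and the difference over both spots with the 8 arrays alone was 0.92 (adjusted p = 0.0822).

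Among the largest falls were 2 more receptors of the G protein-coupled class. Aplnr, the apelin receptor of vascular and heart progenitors, was at -0.83, -0.63, -1.26 and -0.32 in Cx43 null and at 0.84, 1.18, 0.73 and 1.34 in heterozygous brain. The groups lay on either side of 0, and Aplnr was 3.45-fold lower in Cx43 null brain (-1.79 ± 0.22, adjusted p = 0.000566). Adgrg6, an adhesion receptor that Schwann cells need for myelination, was at -0.88, -0.94, -1.20 and -1.38 against 1.23, 0.38, 0.96 and 0.07. It was 3.39-fold lower (-1.76 ± 0.30, adjusted p = 0.00733). A second Adgrg6 spot, left out by the filter, showed no such fall, at -1.28, -0.56, -1.12 and -1.15 in Cx43 null and at -0.67 and -1.74 on the 2 heterozygous arrays with a value. The wild-type means of -0.76 for Aplnr and -0.94 for Adgrg6 were again closer to Cx43 null than to heterozygous brain. Both genes passed without any 1 of the 8 arrays.

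Muc1, an epithelial cell-surface mucin, was at -3.004, -3.04, -2.76 and -2.97 in Cx43 null brain and at -0.72, -0.95 and -1.12 on the 3 heterozygous arrays with a value. It was 4.05-fold lower (-2.02 ± 0.24, adjusted p = 0.000938), and its Cx32 null mean of -3.29 lay with Cx43 null brain while its wild-type mean of -1.17 lay with heterozygous brain. Ubl4b, a ubiquitin-like protein known from the testis, was at -2.97, -3.54, -3.08 and -1.76 against 0.01, -1.25, -0.76 and -0.21. It was 4.87-fold lower (-2.28 ± 0.44, adjusted p = 0.0148), and lost without null replicate 1 or 2 or heterozygous replicate 1 or 4 (adjusted p 0.0501 to 0.0587). Sqor, the mitochondrial enzyme that oxidises hydrogen sulfide, was 3.91-fold lower (-1.97 ± 0.34, adjusted p = 0.00733), and it passed without any 1 of the 8 arrays. Its second spot, left out of that fit, was at -2.27, -3.72, -3.13 and -3.59 in Cx43 null and at -4.10, -2.36 and -3.51 on 3 heterozygous arrays, so that the groups overlapped. With the 8 arrays fitted alone, which averaged both spots, Sqor differed by -1.28 and did not pass (adjusted p = 0.193). Ctss, the lysosomal protease cathepsin S of microglia, was 3.83-fold lower (-1.94 ± 0.47, adjusted p = 0.0496). Heterozygous replicate 3 was at 0.52 for Ctss and the other heterozygous arrays at -1.45 to -1.17, and the call held without null replicate 4 only, with adjusted p of 0.0756 to 0.153 in the other 7 fits.

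Of the remaining falls, Meioc, a regulator of meiosis, differed by -1.70 ± 0.28 (adjusted p = 0.00708, n = 3 null arrays) and passed in the 5 such fits that gave it a value. Pinx1, an inhibitor of telomerase, was 3.19-fold lower (-1.67 ± 0.37, adjusted p = 0.0345, n = 3 heterozygous arrays), and lost without null replicate 1, 2 or 3 or heterozygous replicate 3 (adjusted p 0.0535 to 0.0856). Heterozygous replicate 3 had no value for Pinx1, whose difference without it was still -1.67. The zinc finger gene Zfp518a was 3.07-fold lower (-1.62 ± 0.33, adjusted p = 0.0224). Its call was lost without null replicate 2 or 3 or heterozygous replicate 2 or 4 (adjusted p 0.0567 to 0.0809). Nexmif, a gene of neurite extension and neuronal migration, was at 1.41, 1.47, 2.05 and 2.59 in Cx43 null and at 3.30, 3.55 and 3.43 on 3 heterozygous arrays. It was 2.92-fold lower (-1.55 ± 0.29, adjusted p = 0.0163). Fbxl18, an F-box subunit of a ubiquitin ligase, differed by -1.49 ± 0.30 (adjusted p = 0.0241, n = 3 heterozygous arrays). Nexmif had an adjusted p of 0.0587 without null replicate 1 or 2, and Fbxl18 one of 0.0724 and 0.066.

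**Figure D3:**
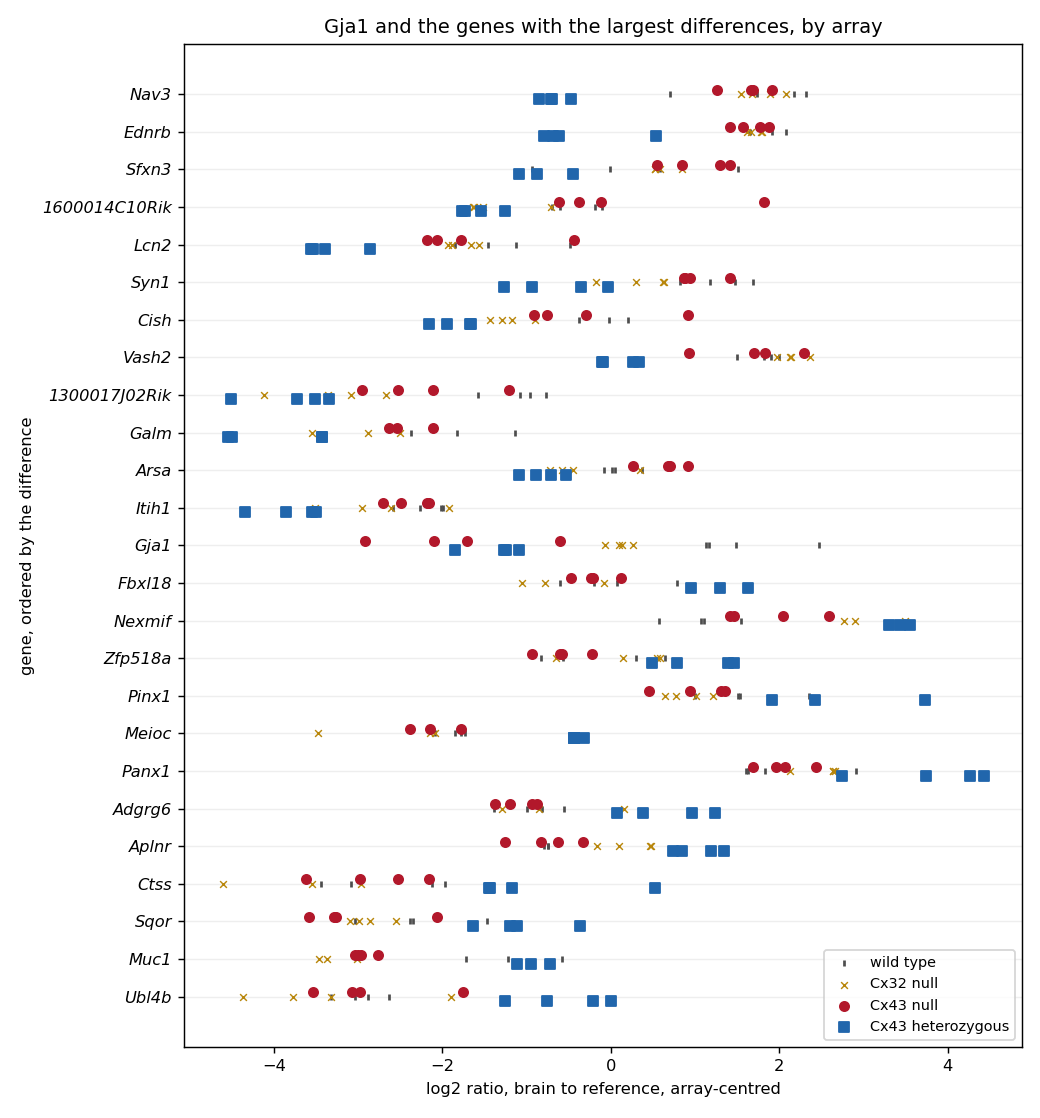
Array-centred log2 ratio of brain to reference (x axis) for Gja1 and the 24 passing genes that differed most, 12 up and 12 down in Cx43 null brain, ordered by the difference; each mark is 1 array. Cx43 null and Cx43 heterozygous marks do not overlap for the 24 genes chosen by size, and they overlap for Gja1.

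In all 24 of these genes the heterozygous mean was the highest or the lowest of the 4 genotypes. The Cx43 null mean was the other extreme in 7 of them. Over all 208 passing transcripts the heterozygous mean was the highest or lowest in 197 (94.7%) and the Cx43 null mean in 67 (32.2%), against 51.9% and 28.9% of all transcripts tested. These shares are a description, since passing the test between these 2 groups by itself favours their means lying at an extreme. No order by Gja1 dose was tested here.

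Sequence around the start is shown for 3 genes the results turn on: the endothelin receptor Ednrb and the channel Panx1, whose groups lay far apart in opposite directions, and the glucose transporter Slc2a1 described below. The sequences are from RefSeq (build GRCm38.p6), where 3 of 5 genes looked for had an entry; Nav3 and Aplnr had none. Each run covers 250 bases before and 50 after the start of the gene, 5′ to 3′ on its own strand. Capitals mark ACGTG, a form of the core RCGTG (R is A or G) of the element bound by hypoxia-inducible factors, searched on both strands. The form GCGTG was not searched and is not marked, so the counts below do not cover it. GCGTG can be read, on the printed or the other strand, in each of the printed windows. The counts of ACGTG thus do not set the windows apart for RCGTG. ACGTG overlaps the E-box CACGTG.
Ednrb promoter (chr14:103843652-103843951, minus strand): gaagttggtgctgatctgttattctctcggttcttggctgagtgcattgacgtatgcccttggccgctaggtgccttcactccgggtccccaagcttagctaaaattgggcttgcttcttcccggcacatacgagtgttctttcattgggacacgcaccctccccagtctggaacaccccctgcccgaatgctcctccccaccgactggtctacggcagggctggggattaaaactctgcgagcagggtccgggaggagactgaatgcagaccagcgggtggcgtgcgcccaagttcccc
Panx1 promoter (chr9:15045429-15045728, minus strand): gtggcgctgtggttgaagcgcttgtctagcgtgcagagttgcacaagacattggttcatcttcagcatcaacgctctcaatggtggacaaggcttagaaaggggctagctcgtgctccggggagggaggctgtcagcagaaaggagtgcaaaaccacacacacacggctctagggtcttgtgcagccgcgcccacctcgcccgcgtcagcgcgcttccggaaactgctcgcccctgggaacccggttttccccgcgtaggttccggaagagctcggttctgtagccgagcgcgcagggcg
Slc2a1 promoter (chr4:119108495-119108794, plus strand): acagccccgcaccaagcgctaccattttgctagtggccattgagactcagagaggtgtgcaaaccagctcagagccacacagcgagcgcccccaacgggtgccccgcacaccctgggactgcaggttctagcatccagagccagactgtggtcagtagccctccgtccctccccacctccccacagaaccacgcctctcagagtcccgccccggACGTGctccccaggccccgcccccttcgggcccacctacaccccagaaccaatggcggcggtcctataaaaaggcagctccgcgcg
ACGTG was found 1 time in the Slc2a1 window, on the printed strand, and 0 times in the Ednrb and Panx1 windows. It is present on either strand in 6447 of 32851 promoters of the same length (19.6%).

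The gene lists were then read against the background of 1.46%. Of 624 measured genes on the 30 lists, 10 passed (1.6%), 6 higher and 4 lower in Cx43 null brain, a share close to that of all transcripts. No list had more than 2 passing members, and 19 of the 30 had 0. The passing members are Nav3, Syn1, Cct6a, F11r, Slc2a1 and Aqp1, which were higher, and Panx1, Ctss, Otx2 and Plk1, which were lower.

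Genes of oxygen and glucose supply lay mostly above 0, with 1 gene passing. Slc2a1 encodes the glucose transporter GLUT1 of brain endothelium and a target of hypoxia-inducible factors. Its log2 ratio was 0.53, 0.68, 1.05 and 0.07 in Cx43 null and -0.44, -0.18, -0.46 and -0.33 in heterozygous brain. The groups did not overlap, and the gene was 1.91-fold higher (0.94 ± 0.21, adjusted p = 0.0305), with its 2 spots at 1.06 and 0.81. The call held without null replicate 4 only, and the adjusted p was 0.0644 to 0.102 without any 1 of the other arrays.

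Of 26 measured hypoxia response genes 1 passed, higher, and 0 lower. By sign alone 21 lay above 0 and 5 below, against 55.2% of all transcripts above 0, and the median difference was 0.34. The list median was 0.49, 0.00, 0.19 and -0.05 on the Cx43 null arrays and -0.33, -0.24, -0.21 and -0.21 on the heterozygous arrays. Every null array thus lay above every heterozygous array, with null replicate 1 the highest. The wild-type arrays were at 0.06 to 0.29, and the Cx32 null arrays at -0.33 to -0.11. The values of 6 of the 26 members did not overlap between the groups (23.1%), all higher in Cx43 null brain, where 7.11% of all transcripts did so. Members with large differences that did not pass include Hmox1, the haem oxygenase (0.86, adjusted p = 0.206), Bnip3, a mitophagy receptor (0.76, 0.124), P4ha1, a collagen prolyl hydroxylase (0.73, 0.118), and Pdk1, a kinase that inhibits pyruvate dehydrogenase (0.64, 0.144). The list median was between 0.27 and 0.53 with any 1 array left out.

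The glycolysis list, which shares 11 genes with the hypoxia list, had 20 measured members, of which Slc2a1 alone passed. By sign 18 lay above 0 and 2 below, with a median difference of 0.50. Its array medians were 0.76, 0.06, -0.12 and -0.41 in Cx43 null and -0.44, -0.39, -0.37 and -0.40 in heterozygous brain. Here the null arrays were spread widely and replicate 4 lay within the heterozygous range. Without null replicate 1 the median difference was 0.26. Aldoa (0.85, adjusted p = 0.2), Ldha (0.85, 0.344), Pgk1 (0.81, 0.257) and Gapdh (0.76, 0.314), enzymes of the pathway itself, did not pass.

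Lists of glial and neuronal identity held few passing genes. None of the 16 measured genes of astrocytes and radial glia passed; 8 lay above and 8 below 0, with a median of 0.05. Ndrg2, an astrocyte protein, had the lowest p, at 0.86 ± 0.31 (adjusted p = 0.211), with null replicate 1 at 0.91 and the other null arrays at -1.01 to -0.39, against -1.31 to -1.11 on the heterozygous arrays. Without null replicate 1 its difference was 0.46. Ptprz1, a receptor phosphatase of radial glia, was at -0.75 (adjusted p = 0.378), and Fabp7, their fatty acid binding protein, at -0.12 (0.892). The 17 neuron genes also had 0 passing members and a median of 0.15, with the growth cone protein Basp1 at 0.46 (adjusted p = 0.358). The list of synaptic vesicles and active zone had 10 measured members, of which Syn1 passed; the others ran from -0.22 for Cplx1 to 0.67 for Syt11. Its median difference of 0.37 was 0.10 without null replicate 1 and 0.62 without null replicate 3. In the list of neuronal migration and axon growth, Nav3 passed among 21 members, and the median was 0.06.

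Genes whose proteins bind or modify connexin 43 had 0 passing members of 16, with a median of 0.15. Akt1 had the largest difference of the list, 1.19 (adjusted p = 0.268), and its groups did not overlap. The ubiquitin ligase Nedd4, which acts on connexin 43, was at 1.52, 1.98, 1.74 and 1.69 in Cx43 null brain. It was at 1.25, 0.71, 1.28 and 1.155 in heterozygous brain and differed by 0.64 ± 0.19 (adjusted p = 0.115). Its 4 spots differed by 1.03, 0.93, 0.41 and 0.17. Beta-catenin, Ctnnb1, differed by 0.73 (adjusted p = 0.231, spots at -0.20 and 1.66). A further Ctnnb1 spot, left out for lack of values in wild-type brain, was higher in Cx43 null brain without overlap. It was at 3.68, 3.34, 2.35 and 2.73 in Cx43 null and at 2.08, 1.39, 1.57 and 1.83 in heterozygous brain. The scaffold Tjp1, which binds the tail of connexin 43, differed by -0.13 (adjusted p = 0.901). Among 24 cadherins, catenins and tight junction genes F11r passed, the junctional adhesion molecule A. It was at -1.25, -1.65, -1.13 and -2.05 against -2.63, -2.32, -2.80 and -2.48, and was 2.05-fold higher in Cx43 null brain (1.04 ± 0.20, adjusted p = 0.013). Its 2 spots differed by 1.06 and 1.01, and the call was lost without null replicate 1 (0.0507) or heterozygous replicate 3 (0.0535).

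Non-neural tissue at the edge of the brain was read from its own lists. Of 7 choroid plexus genes 1 passed in each direction. Aqp1, the water channel of the plexus epithelium, was at -0.83, -1.75, -1.55 and -1.44 in Cx43 null and -2.38, -2.08, -2.67 and -2.11 in heterozygous brain, and was 1.89-fold higher (0.92 ± 0.21, adjusted p = 0.0372). Its 2 spots differed by 1.45 and 0.38. Otx2, the homeobox factor of forebrain and choroid plexus, was at 0.87, 1.64, 1.43 and 1.52 against 2.40, 2.57, 2.06 and 2.74, and was 2.12-fold lower (-1.08 ± 0.23, adjusted p = 0.0241). The groups did not overlap for either gene. Ttr, transthyretin, the defining transcript of the plexus, differed by 0.37 (adjusted p = 0.507). Aqp1 held only without null replicate 2 and Otx2 only without null replicate 2 or 4 or heterozygous replicate 3, with adjusted p of 0.0542 to 0.134 and 0.051 to 0.0943 in the other fits.

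The 13 meningeal genes had 0 passing members, with Igf2 the lowest in p at -0.73 (adjusted p = 0.197). Its 3 spots differed by 0.04, -1.09 and -0.52. Heterozygous replicate 1 had no value on the spot at -1.09, which had the lowest log2 ratios of the 3. The Igf2 mean of that array, 2.82, lay above the 1.32 to 1.97 of the other heterozygous arrays. Of 8 red blood cell genes 0 passed, with a median of 0.41 and array medians of -2.48 to -1.19 in Cx43 null and -2.33 to -1.97 in heterozygous brain. The anion exchanger of erythrocytes, Slc4a1, differed by 0.66 ± 0.17 (adjusted p = 0.0657). In the endothelial list of 7, Slc2a1 passed. By sign 3 members lay above 0 and 4 below, with a median of -0.004. Besides Slc2a1, Esam was at 0.45 (adjusted p = 0.473) and Mcam at 0.28 (0.545). Below 0 were Cldn5 at -0.39 (0.568), Cdh5 at -0.09 (0.882), Tek at -0.40 (0.265) and Eng at -0.004 (0.998). Ctss passed among 10 microglial genes, of which 6 lay above 0 and 4 below, with a median of 0.07. Itgam was at -0.65 (adjusted p = 0.287) and Cd68 at -0.29 (0.711). The complement genes C1qa and C1qb were at 0.56 (0.563) and 0.25 (0.709). The part of blood, vessel and meningeal content in the differences above was not tested. The lists of liver plasma proteins and of other reference tissue genes, 16 measured members each, had 0 passing members; Pon1 (2.10, adjusted p = 0.0741) and Rdh7 (1.60, 0.0692) had the lowest p, at log2 ratios far below 0 in both groups (means of -4.88 and -4.61 in Cx43 null brain). The liver list's median was 0.31, but -0.11 under quantile scaling and -0.04 under cyclic loess.

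Of the lists of protein and energy turnover, the chaperones had 1 passing member of 54. Cct6a, a subunit of the TRiC chaperonin that folds actin and tubulin, was at 1.33, 1.504, 0.86 and 1.75 in Cx43 null and at 0.20, 0.21, 0.19 and 0.28 in heterozygous brain. It was 2.20-fold higher (1.14 ± 0.19, adjusted p = 0.00682) and passed without any 1 of the 8 arrays. By sign 38 chaperones lay above 0 and 16 below, with a median of 0.15. Hspd1 (0.70, adjusted p = 0.15) and Hspa8 (0.75, 0.317), heat shock proteins of mitochondria and cytosol, did not pass. Of 61 cytosolic ribosomal protein genes 0 passed, with a median of 0.16 that was -0.01 with values as deposited. The ribosomal array medians were 0.18 on null replicate 1 and 0.03 on each of the other null arrays, against -0.19 to -0.02 in heterozygous brain. Neither the 42 proteasome genes (median 0.10) nor the 63 genes of the respiratory chain and ATP synthase (median 0.08) had a passing member. The lowest p in them belonged to Psmd1 (0.78, adjusted p = 0.104; its 3 spots were at 2.16, 0.22 and -0.04) and Cox6c (-1.58, 0.13), and Rpl13a led the ribosomal list (0.82, 0.141).

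Cell division genes had 1 passing member of 46. Plk1, a kinase of mitosis, was at -0.69, -0.57, -0.80 and -0.59 in Cx43 null and at 0.11, 0.16, 0.62 and 0.05 in heterozygous brain, and was 1.86-fold lower (-0.90 ± 0.19, adjusted p = 0.0244). The call held without null replicate 4 only, with adjusted p of 0.0511 to 0.102 in the other 7 fits. By sign 22 members of the list lay above 0 and 24 below, with a median of -0.02. The lists of actin filaments (42 members), tubulins and microtubule proteins (30), glutamate receptors and transport (7), GABA and glycine signalling (9), calcium and purinergic signalling (15), apoptosis (22), Wnt and Notch signalling (24), skeletal muscle (14) and oligodendrocytes and myelin (2) had 0 passing members. Their lowest adjusted p values included those of Actn2, the muscle actinin (1.15, adjusted p = 0.106), Casp12 (0.62, 0.141), Tpm1 (1.12, 0.156), Camk4 (-0.67, 0.206), Tuba1b (-0.93, 0.208), Gabra3 (0.52, 0.219) and Homer2 (0.49, 0.316). Pdgfra, of oligodendrocyte precursors, was at -0.97 on null replicate 3 and at 0.56 to 0.70 on the other null arrays, with a difference of -0.57 (adjusted p = 0.408).

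**Figure D4:**
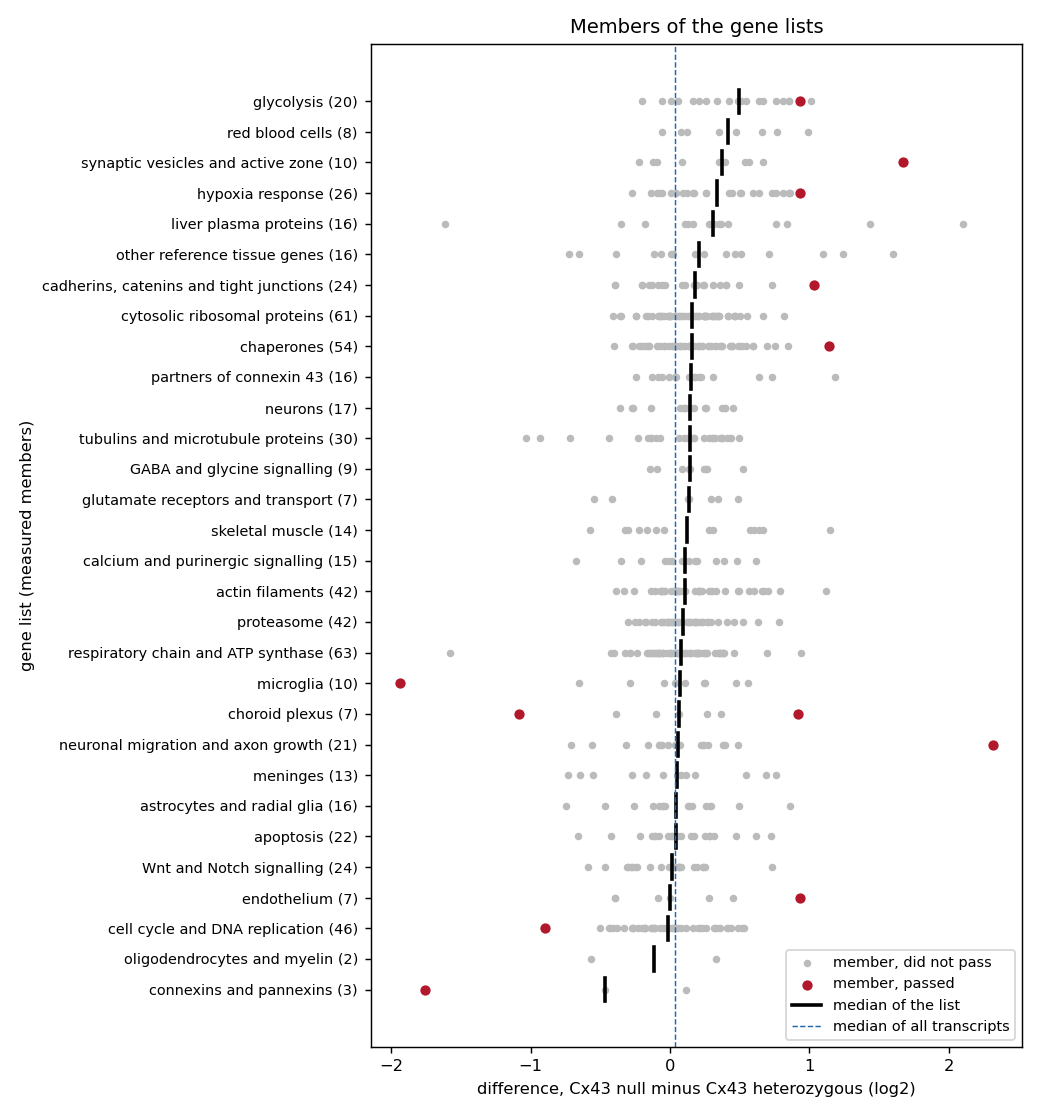
Difference between Cx43 null and Cx43 heterozygous brain (log2, x axis) of each measured member of the 30 gene lists, ordered by the list's median (black bar); red points are members that passed. The hypoxia and glycolysis lists have medians of 0.34 and 0.50, against 0.04 for all transcripts (dashed line), and 11 lists hold a passing member.

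The count of 208 fell when any 1 of the 8 arrays was left out, except Cx43 null replicate 4. It was 78, 79, 109 and 218 without Cx43 null replicate 1, 2, 3 and 4, and 77, 69, 63 and 67 without Cx43 heterozygous replicate 1, 2, 3 and 4. A transcript had to have a value on all 3 remaining arrays of the reduced group, so 13287 to 14111 were tested. Each such fit also has fewer arrays, and the part that this plays in the counts was not tested. In all 8 fits 33 of the 208 passed, 20 of them named genes, and 8 of the 24 genes named by size are among these. With the 8 arrays fitted without the other genotypes 305 transcripts passed, 156 of the 208 among them and 17 of the 24.

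**Figure D5:**
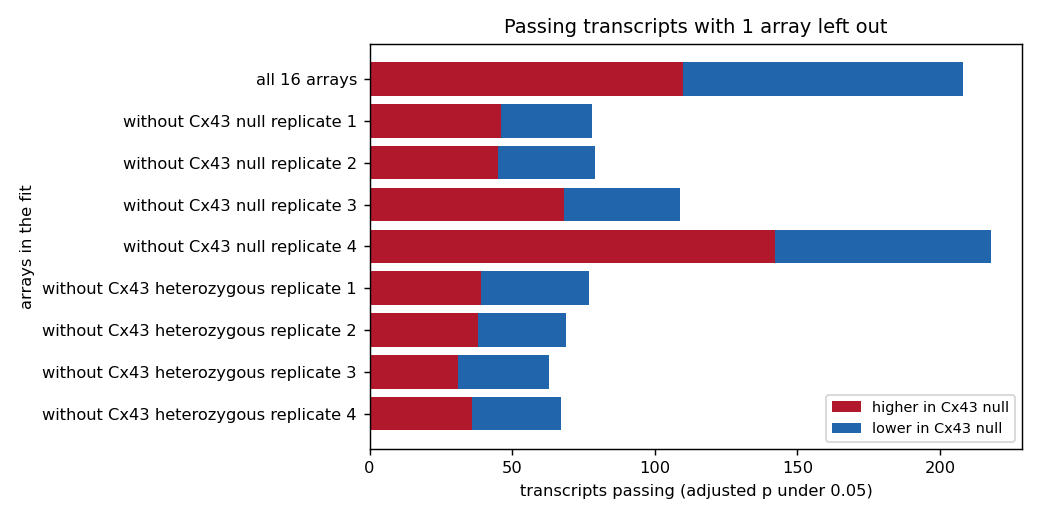
Number of transcripts with an adjusted p under 0.05 (bars, x axis) in the fit of all 16 arrays and in each fit that leaves out 1 of the 8 arrays compared (y axis), split by direction. The count falls from 208 to between 63 and 109 without any array except Cx43 null replicate 4, where it is 218.

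Most calls rest on 1 spot. Of the 108 passing named genes 83 were read by 1 spot, which is 1.69% of the genes so read, and 25 by several, which is 0.669% of those. All spots had the same direction in 23 of the 25, and each spot had an unadjusted p under 0.05 in 12. The 2 exceptions were Lyar, with spots at -2.45 and 0.15, and Poldip3, with spots at 2.22 and -0.15. Of the 24 genes named by size 23 were read by 1 spot. For 11 of the 108 genes the filter had left out a further 12 spots with at least 2 values in each group. In 7 of these the difference had the gene's direction and in 5 the opposite one, those of 1600014C10Rik, Galm, Adgrg6, Sqor and Dst. Passing spots were also unevenly placed within the printed blocks: 3.04% of the spots in row 10 (27 of 888) and 3.33% in column 16 (27 of 811) passed, against 1.36% of all spots and 0.348% to 2.02% in the other rows and columns. Between blocks the share ran from 0 to 4.2%, with a median of 1.23%. It was highest in block 1 (4.2%, 19 of 452), which holds Meioc, Plk1 and the larger of the Aqp1 and Psmd1 spots, and in block 46 (4.09%, 17 of 416), which holds Aplnr, Otx2 and Sqor. Gja1, Arsa and Cct6a lie in row 10, Nav3, Muc1 and Nexmif in column 16, and Otx2 in both. Without that row and column 133 transcripts passed. The part of spot position and block in these differences was not tested.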

How the data were processed

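RNA of brain was measured on 16 cDNA arrays with 2 colours. The titles call the brain neonatal in every group except Cx32 null, where they give no age. The authors deposited a log ratio for each spot of each array, taken as log2; per the labels the brain carried Cy3 and the reference Cy5, while log base, numerator and normalization within an array are not given in the sources used here. The arrays' number limits the precision. Symbols came from the platform's gene identifiers: 18511 of 28704 spots have a single symbol. Arrays were centred on their medians (-0.13 to 0.28 before centring), spots with at least 3 of 4 values in every group kept (19951), and spots of a gene averaged, which gave 14292 transcripts (8654 named genes, 5638 unnamed spots). The 4 group means were fitted to the 16 arrays with limma 3.58.1 (lmFit, eBayes, 2-sided, R 4.3.3), with Benjamini-Hochberg adjustment and a threshold of 0.05. The script was tested on simulated data.

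Named genes are Gja1, the 12 largest rises and 12 largest falls among passing genes with separate groups outside blocks out of step, and per list up to 3 passing members in each direction or the member with the lowest p; other list members and genes read by several opposing spots were named after their values were seen. Members and lists were chosen with earlier results of these data known. Alternatives covered scaling, filters, spots, the arrays in the fit, weights, priors, blocks of spots and a replicate block.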

Additional observations from a re-analysis of the deposited data

Results flagged for a closer look

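In 13 of 150 sets of 4 arrays that were checked, 1 array lay far from the other 3 (Dixon's test at its 95% critical value); chance gives about 5% of such sets. Among the genes, Ednrb was at 0.54 on Cx43 heterozygous replicate 4, with the others at -0.79 to -0.62. Syn1 was at 1.41 on Cx43 null replicate 1, with the others at 0.87 to 0.94. Ctss was at 0.52 on heterozygous replicate 3, with the others at -1.45 to -1.17. Meioc was at -0.31 on heterozygous replicate 4, with the others between -0.44 and -0.43. On null replicate 3, Pdgfra was at -0.97 (others 0.56 to 0.70) and Actn2 at -3.11 (others -3.49 to -3.43). Igf2 was at 0.95 on null replicate 4, with the others at 1.29 to 1.34.

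Among the list medians, that of connexins and pannexins was at 1.21 on heterozygous replicate 4 and at -0.55 to -0.37 on the others, over 3 genes. The partners of connexin 43 were at 1.16 on heterozygous replicate 1 (others 0.95 to 0.98), and the liver plasma proteins at -4.06 on heterozygous replicate 2 (others -4.59 to -4.52). Null replicate 4 was low for red blood cells, at -2.48 (others -1.32 to -1.19), and for skeletal muscle, at -2.53 (others -1.77 to -1.70). The cytosolic ribosomal proteins were at 0.18 on null replicate 1 and at 0.03 on each of the others.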

How the results depend on the processing

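The count of 208 passing transcripts was 80 with a value on all 16 arrays (9829 tested), 385 without wild-type array 1, 1847 with array quality weights and 63 to 218 with 1 array left out. Alternatives chosen after seeing the data gave 388 without the wild-type group and 133 without row 10 and column 16. Each spot on its own gave 271, and 7 arrays without Cx43 null replicate 1 gave 155. With the replicate number as a block 141 passed, 127 of them among the 208. Arrays of the same number in the 2 groups deviated together at r of 0.032, 0.012, 0.158 and -0.052. The best match of any number reached 0.125, 0.137, 0.158 and 0.189 only. Values this low cannot decide whether the numbers pair the samples. The median SD ranged from 0.212 to 0.297 in Cx43 null (0.27 with all arrays) and from 0.172 to 0.194 in Cx43 heterozygous brain (0.20) with 1 array left out, over the transcripts of each such fit. Gja1 passed in none of its alternatives, where its lowest adjusted p was 0.194, with the 7 arrays. Galm turned to -0.38 with these 7 arrays, read there from its second spot only. Igf2 turned to 0.039 and Ctnnb1 to -0.20 with a value on all 16 arrays, which leaves them fewer spots. Among the other values of named genes, 988 kept direction and side of the threshold, 123 lost the threshold and 36 gained it; of the list medians 668 moved by less than the spread between arrays and 22 by more. The causes were not tested. Without intensities, signal over background is not known.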

Other observations

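Other passing genes, chosen after their values were seen because they passed with any 1 of the 8 arrays left out, belong to none of the lists above. Ykt6, a SNARE protein of membrane fusion, was at 1.07, 0.48, 0.97 and 0.97 in Cx43 null and at -0.45, -0.26, -0.21 and -0.03 in Cx43 heterozygous brain, a difference of 1.11 ± 0.18 (limma adjusted p = 0.00582). This is the mean of 2 spots that do not match, at 2.03 and 0.01. Gnao1, the alpha subunit of the G protein Go of neurons, was at 2.78, 2.51, 2.91 and 2.60 against 1.62, 1.79, 1.81 and 1.70, a difference of 0.97 ± 0.18 (adjusted p = 0.013), with its 2 spots at 0.96 and 0.98. Zdhhc2, a palmitoyl transferase that acts on the synaptic scaffold PSD-95, was 2.11-fold higher in Cx43 null brain (1.08 ± 0.20, adjusted p = 0.0109), and the deubiquitinase Usp28 2.09-fold higher (1.06 ± 0.17, adjusted p = 0.00528; spots at 0.48 and 1.65). The groups did not overlap for these 4 genes.

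Lower in Cx43 null brain were Tenm3, a teneurin that matches synaptic partners, Igfbp1, which binds insulin-like growth factors, and Acaa2, a thiolase of mitochondrial fatty acid oxidation. Tenm3 was at 1.73, 1.34, 1.40 and 1.31 in Cx43 null and at 2.39, 2.44, 2.39 and 2.14 in heterozygous brain (-0.90 ± 0.17, adjusted p = 0.013). Igfbp1 differed by -1.19 ± 0.21 (adjusted p = 0.0112) and Acaa2 by -1.43 ± 0.25 (adjusted p = 0.00733). Each of these 3 genes was read by 1 spot, and their values did not overlap between the groups.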
